A study of Mus musculus with 8 samples.

Results

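The genes described are 41 mouse genes of complement, coagulation and fibrinolysis whose proteins are made mainly by hepatocytes and secreted into the plasma. They were taken by name from a deposited table of 20894 genes, and all 41 were found. Their measured values were not a criterion, but the list was chosen with earlier results of these data known. The samples were livers of WT mice injected with AAV8-TBG-POLR2G, an adeno-associated virus that brings in POLR2G, which belongs to RNA polymerase II, or with AAV8-TBG-GFP as the control. The TBG promoter, from the gene for thyroxine-binding globulin, is active mainly in hepatocytes. All mice were killed after fasting during the day, and their strain, sex, age and vector dose are not stated in the labels. Poly-A RNA was sequenced in 4 POLR2G libraries and 4 GFP control libraries. The labels tie no library to an animal, so the p-values measure only the spread between these libraries, which may be technical.

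Coagulation runs as a cascade of proteases made in the liver as inactive precursors. Tissue factor with factor VII, or the contact system, leads to factor X, which with factor V turns prothrombin into thrombin, and thrombin turns fibrinogen into fibrin. Serpins and the protein C system restrain the cascade, and plasmin dissolves the clot. Complement is a related plasma cascade, in which the classical, lectin and alternative pathways meet at C3 and end in a membrane attack complex that opens a pore in target membranes.

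None of the 41 genes passed edgeR over all genes between POLR2G and GFP control livers, and DESeq2 called F7 alone. Fga, the fibrinogen alpha chain, had a 1.36-fold higher mean in POLR2G livers and F7, coagulation factor VII, a 1.23-fold higher one. Of the 41 genes, 39 had enough counts to be tested, and F12 and C3 did not. None of the 39 reached an adjusted p under 0.05 in edgeR's quasi-likelihood test, which called 4 of all 10390 genes tested (0.0385%). At an unadjusted p under 0.05 there were 6 members, all with the higher mean in POLR2G livers (15.4%, against 8.3% of all genes, 4.2% with the higher and 4.1% with the lower mean). They were F7, Fga, Serpind1, Masp1, F11 and Serpinf2. In 4 of the 6, namely F7, Fga, Serpind1 and Masp1, every POLR2G library lay above every GFP control library (10.3% of the members, against 5.51% of all genes, 2.83% with that order and 2.68% with the reverse). DESeq2, the other count test, called 1 member, F7 (adjusted p = 0.0065, log2 fold change 0.30), and 140 of the 7769 genes it adjusted (1.8%, 0.978% with the higher mean). At an unadjusted p under 0.05 it had 7 members (17.9%, against 8.68% of all genes).

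The mean was higher in POLR2G livers for 29 of the 39 members and lower for 10 (74.4% higher, against 49.3% of all genes). That split depends on the scaling: with library totals alone as the scale, 21 of 39 had the higher mean (53.8%), against 34.3% of all genes, and 1 member had an unadjusted p under 0.05 (2.56%, against 9.06% of all genes). The median log2 fold change of the members was 0.086, against −0.0031 over all genes, and with library totals alone 0.011 against −0.079. The members' log2 fold changes ran from −0.94 for F2 to 0.45 for Fga. For 33 of the 39 members (84.6%) the 95% interval of the fold change lay within 1.5-fold either way, as for 51.7% of all genes, and for 37 within 2-fold, as for 74.7% of all genes. The members varied less between libraries than the typical gene, with a median biological coefficient of variation of 0.118 against 0.189. No comparison with genes of like level was made. Other genes of these pathways had 0.182, but among them the fluid-phase complement regulators had 0.0975 and the vitamin K cycle and factor export genes 0.133. Together the 41 genes held 2.56 ± 0.0711% of all counts in POLR2G libraries and 2.56 ± 0.320% in GFP control libraries (SD, n = 4 each), and the groups overlapped. The equal means rest on GFP control replicate 3, which held 3.03%. GFP control replicates 1, 2 and 4 held 2.31, 2.47 and 2.44%, below the 2.51 to 2.66% of the POLR2G libraries. Without GFP control replicate 3 the mean share was 0.153 percentage points higher in POLR2G livers, against a difference of −0.0033 with all libraries.

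**Figure D1:**
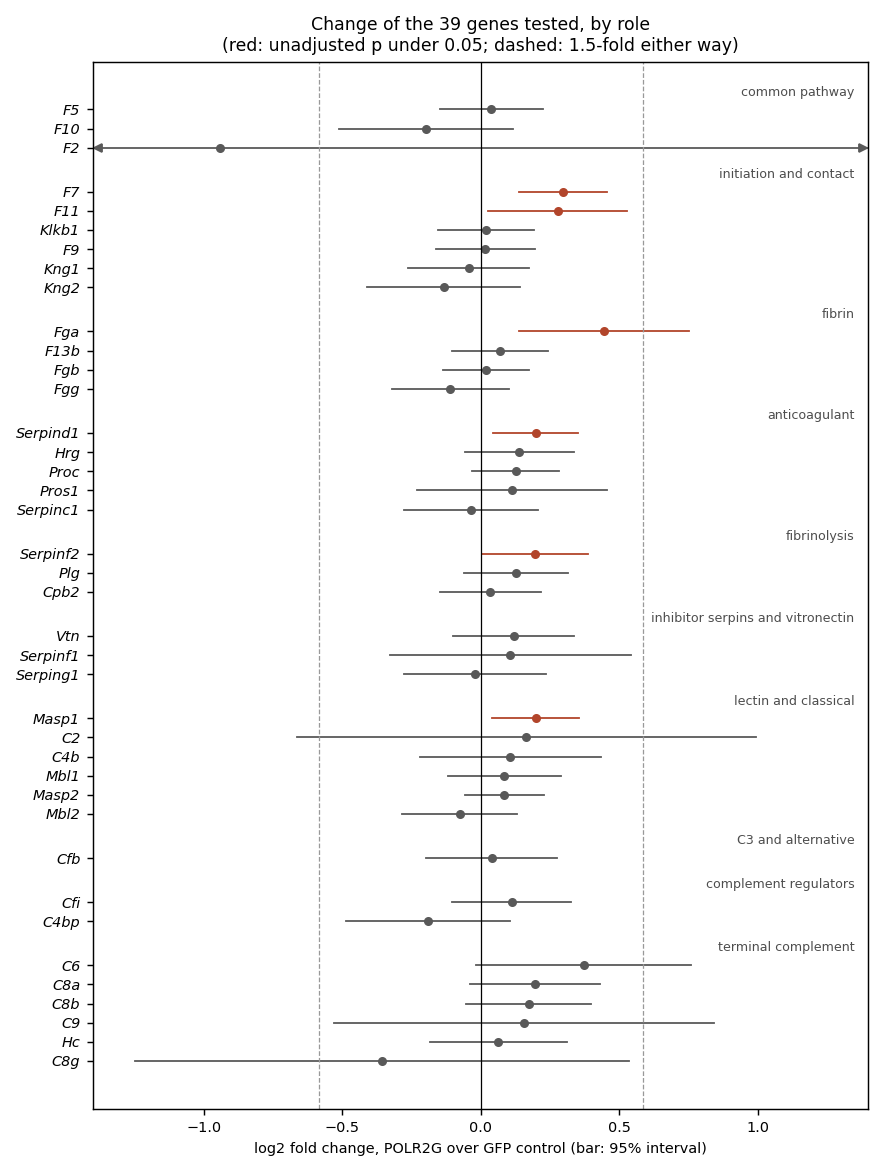
Log2 fold change of each of the 39 genes tested, POLR2G over GFP control, with its 95% interval, grouped by role; arrowheads mark intervals that run past the axis, and dashed lines mark 1.5-fold either way. The 6 genes in red had an unadjusted p under 0.05 and all lie to the right of 0, and none had an edgeR adjusted p under 0.05.

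Total estimated counts were 16362899 to 22165491 in the POLR2G libraries and 14159056 to 18865284 in the GFP control libraries. Polr2g measured 2412 ± 154 CPM (estimated counts scaled for library size by TMM) in POLR2G libraries and 13.7 ± 1.003 CPM in GFP control libraries, so each library matched its group (log2 fold change of 7.46 with an SE of 0.102, adjusted p = 3.23e-10 in edgeR). One POLR2G column carries a number that the labels do not list, and it is called the unnumbered POLR2G library. Summed hepatocyte markers were 109140 to 123030 CPM in POLR2G livers and 116770 to 138870 CPM in GFP control livers, with a lower mean in POLR2G livers for 9 of 10 markers. Most of the sum was Alb, the albumin gene, at 83336 of 109140 CPM in POLR2G replicate 1 and 109460 of 138870 CPM in GFP control replicate 4. Ttr, the transthyretin gene, lay below all GFP control libraries in all POLR2G libraries (log2 fold change −0.19, SE 0.0761), and Pck1, a gluconeogenic enzyme gene, had −0.31 (SE 0.157). In liver tissue, fewer cells of a type and less RNA per cell cannot be told apart. Summed Kupffer cell and macrophage markers were 192.8 to 385 CPM in POLR2G livers, the highest in the unnumbered library, and 178 to 279 CPM in GFP control livers. Summed neutrophil and lymphocyte markers were at most 0.586 and 2.34 CPM in a POLR2G library and at most 0.961 and 2.44 CPM in a GFP control library, and none of those genes had enough counts to be tested. Summed markers of stellate cells, cholangiocytes, platelets and erythroid cells overlapped between the groups too. The part of these differences in the members' values was not tested.

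The levels bound what can be said of some members. C3, the central complement protein, had 2 to 42 estimated counts in a library, F12, the contact factor XII, 0 to 18, and F2, which encodes prothrombin, 0 to 36. C9 had 27 to 68, C8g 16 to 56 and C2 52 to 205. All 6 encode plasma proteins made by the liver, and all have at least 2 annotated coding transcripts. Whether the deposited gene values cover all transcripts of such genes cannot be seen in the table, and the cause of the low counts was not tested. Of the 14 members with 1 annotated coding transcript all were tested, 13 had the higher mean in POLR2G livers, and all 14 intervals lay within 1.5-fold. Of the 27 members with several, 25 were tested, 16 had the higher mean, and 19 intervals lay within 1.5-fold.

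**Figure D2:**
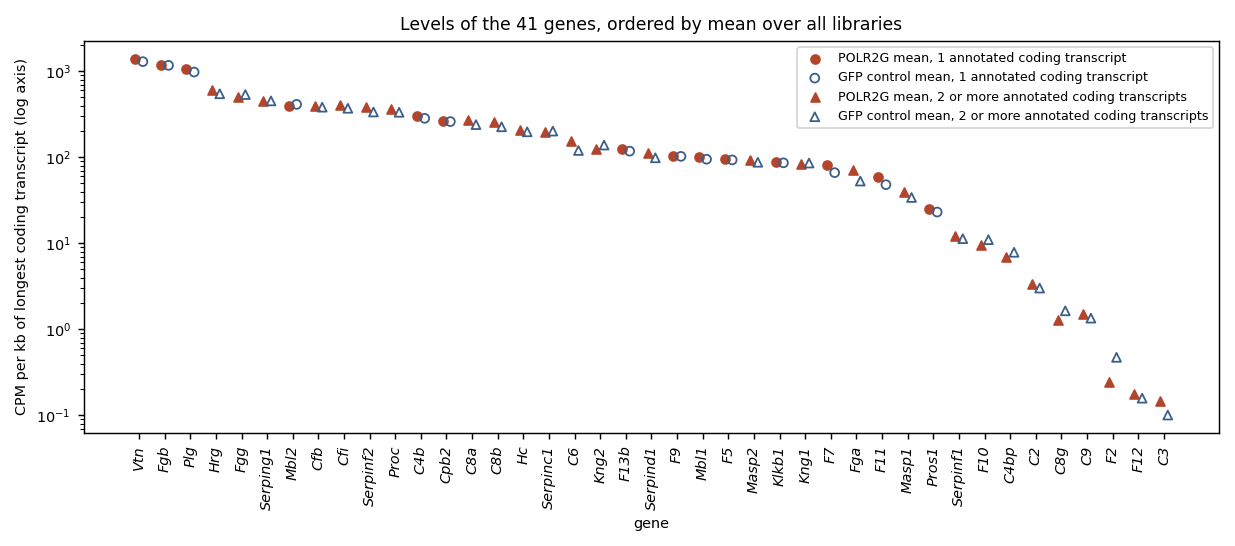
Mean level of each of the 41 genes in POLR2G livers (filled) and GFP control livers (open), in CPM per kb of the longest annotated coding transcript on a log axis, n = 4 libraries each. Vtn, Fgb and Plg head the order, and F2, F12 and C3 lie at its end, among genes with 2 or more annotated coding transcripts.

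Fibrinogen is built from 3 chains encoded side by side on chromosome 3. The POLR2G and GFP control libraries were apart for Fga and overlapped for Fgb and Fgg. The windows before their RefSeq start sites are shown because the chains form one protein, and that of F7 because it had the smallest p of the members. They are from RefSeq on GRCm38.p6, 250 bases 5′ to 3′ on the gene's strand, or for Fga 173, ending before the annotated gene. Capitals mark CTGGGAA, letters bound by STAT3 in acute phase genes, or TTGCNNAA, letters of C/EBP sites, found on either strand. Fga lies on the plus strand (chr3:83025903-83026075), Fgb on the minus strand (chr3:83049864-83050113), Fgg on the plus strand (chr3:83007474-83007723) and F7 on the plus strand (chr8:13025784-13026033).
Fga: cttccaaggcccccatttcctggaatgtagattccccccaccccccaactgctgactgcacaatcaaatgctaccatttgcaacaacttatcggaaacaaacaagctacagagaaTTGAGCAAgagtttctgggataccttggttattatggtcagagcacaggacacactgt
Fgb: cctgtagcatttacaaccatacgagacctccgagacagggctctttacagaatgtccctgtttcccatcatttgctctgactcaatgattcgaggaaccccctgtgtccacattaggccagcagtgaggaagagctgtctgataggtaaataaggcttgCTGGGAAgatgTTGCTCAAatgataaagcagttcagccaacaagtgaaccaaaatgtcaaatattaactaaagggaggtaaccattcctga
Fgg: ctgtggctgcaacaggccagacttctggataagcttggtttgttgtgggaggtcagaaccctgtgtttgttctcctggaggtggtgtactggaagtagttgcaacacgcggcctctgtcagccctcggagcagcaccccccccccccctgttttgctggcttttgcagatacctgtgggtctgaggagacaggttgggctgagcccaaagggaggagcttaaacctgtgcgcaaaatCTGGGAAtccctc
F7: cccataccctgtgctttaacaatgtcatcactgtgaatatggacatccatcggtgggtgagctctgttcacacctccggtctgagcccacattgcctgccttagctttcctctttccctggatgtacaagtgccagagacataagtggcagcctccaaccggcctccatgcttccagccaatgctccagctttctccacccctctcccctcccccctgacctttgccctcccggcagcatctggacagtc
The Fga window holds TTGCNNAA 135 bases before the RefSeq start, which lies 77 bases inside the annotated gene, the Fgb window CTGGGAA at 91 and TTGCNNAA at 80 bases, and the Fgg window CTGGGAA at 13 bases. The F7 window holds neither motif. The letters are a description of the windows and not sites of binding.

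Fga (ENSMUSG00000028001; GRCm38 chromosome 3, 83026076 to 83033627, plus strand) had 162, 181, 186 and 217 CPM in POLR2G replicates 1, 3, 4 and the unnumbered library, the order used for POLR2G values from here on. GFP control replicates 1 to 4 had 108, 124, 156 and 158 CPM. All POLR2G libraries lay above all GFP control libraries, with POLR2G replicate 1 close to GFP control replicates 3 and 4. The means were 186 ± 22.8 CPM in POLR2G livers and 137 ± 24.6 CPM in GFP control livers (SD, n = 4 each). The log2 fold change was 0.45 (SE 0.137, adjusted p = 0.409 in edgeR, DESeq2 adjusted p = 0.079), and the exact two-sided permutation p was 0.0286, the smallest that 4 against 4 libraries allow. Fga has 2 annotated coding transcripts and measured 62.5 CPM per kb, against 1180 CPM per kb for Fgb and 517 for Fgg, the other chains of the same molecule. Whether the deposited value of Fga covers all of its transcripts cannot be seen, so its fold change may hold for only part of them.

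Fgb, the beta chain (ENSMUSG00000033831; chromosome 3, 83040141 to 83049863, minus strand), had 4442, 4568, 4504 and 4586 CPM in POLR2G libraries, against 4619.6, 4231, 4812 and 4189 CPM in GFP control libraries. The POLR2G values fell inside the spread of the GFP control values (log2 fold change 0.020, SE 0.0690, adjusted p = 0.974 in edgeR, exact permutation p = 0.686). Fgg, the gamma chain, averaged 865 ± 80.3 CPM in POLR2G livers and 934 ± 91.0 CPM in GFP control livers (log2 fold change −0.11, SE 0.0936). The log2 ratio of Fga to Fgb was higher by 0.43 in POLR2G livers and that of Fga to Fgg by 0.56, and both overlapped between the groups. Over 13 pairs of members lying within 200 kb of each other, their exact permutation p of 0.0571 became 0.248 after Benjamini-Hochberg adjustment. The 3 chains summed to 5577 ± 138 CPM in POLR2G livers and 5533 ± 372 CPM in GFP control livers, with overlapping groups. F13b, the carrier subunit of the factor that cross-links fibrin, had a log2 fold change of 0.069 (SE 0.0770).

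**Figure D3:**
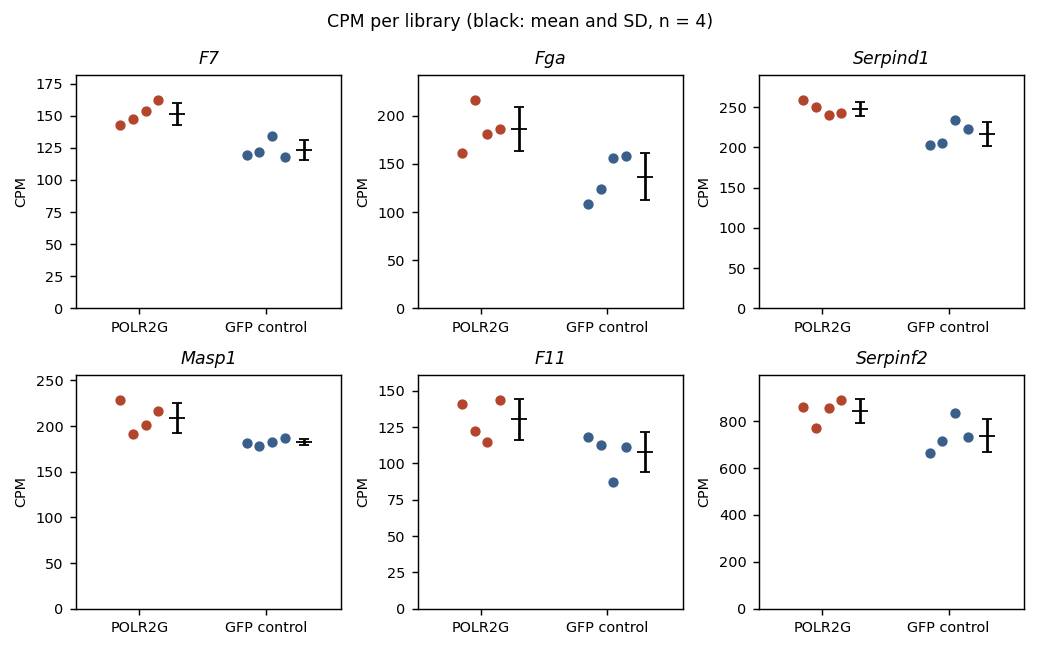
CPM of the 6 genes with an unadjusted p under 0.05, 1 point per library, for POLR2G (left) and GFP control (right) livers, with mean and SD in black (n = 4). The groups do not overlap for F7, Fga, Serpind1 and Masp1, and they overlap for F11 and Serpinf2.

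Factor VII, which starts coagulation with tissue factor, had the smallest p of the 39 members. F7 (ENSMUSG00000031443; chromosome 8, 13026034 to 13035809, plus strand) had 143, 154, 163 and 147 CPM in POLR2G libraries, against 119, 121, 134 and 118 CPM in GFP control libraries. The groups were apart, with GFP control replicate 3 nearest to the POLR2G libraries. The means were 152 ± 8.63 CPM in POLR2G livers and 123 ± 7.67 CPM in GFP control livers (log2 fold change 0.30, SE 0.0707, adjusted p = 0.262 in edgeR, exact permutation p = 0.0286). F7 has 1 annotated coding transcript.

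F11, the contact-activated factor XI (ENSMUSG00000031645; chromosome 8, 45241174 to 45262031, minus strand), had 141, 115, 144 and 123 CPM in POLR2G libraries, against 118, 113, 87.5 and 111 CPM in GFP control libraries. The highest GFP control library lay above the lowest POLR2G library, and GFP control replicate 3 was the lowest of all. The log2 fold change was 0.28 (SE 0.112, adjusted p = 0.537 in edgeR, exact permutation p = 0.0571). Klkb1, which encodes plasma prekallikrein and lies beside F11 (ENSMUSG00000109764; chromosome 8, 45266689 to 45294859, minus strand), had 473, 480.0, 482 and 399 CPM in POLR2G libraries, against 428, 466, 451 and 465 CPM in GFP control libraries. The unnumbered POLR2G library was the lowest and the other 3 POLR2G libraries the highest (log2 fold change 0.019, SE 0.0776, adjusted p = 0.977 in edgeR, exact permutation p = 0.83). Klkb1 is overlapped on its strand by an annotated gene model, so part of its count is uncertain. The gene bodies of 8 members are overlapped on the same strand, the others being C2, C3, Cfb, Cpb2, F5, Kng2 and Serpinc1.

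The other genes of this arm had log2 fold changes nearer to 0 than F7 and F11. F9, the factor lacking in haemophilia B, had a log2 fold change of 0.017 (SE 0.0790). Kng1 and Kng2 encode kininogens, the source of bradykinin, and are near-identical genes among which reads can be split. They had −0.044 (SE 0.0971) and −0.13 (SE 0.123) and summed to 478 ± 18.7 CPM in POLR2G livers and 511 ± 86.8 CPM in GFP control livers. The highest sum, 641 CPM, was in GFP control replicate 3, and the groups overlapped. In the common pathway, F5, the cofactor of factor X (ENSMUSG00000026579; chromosome 1, 164151838 to 164220277, plus strand), had 682, 756, 761 and 647 CPM in POLR2G libraries, against 692, 635, 760.5 and 684 CPM in GFP control libraries. The groups overlapped over nearly their whole range (log2 fold change 0.038, SE 0.0824, adjusted p = 0.943 in edgeR, exact permutation p = 0.657). F10, the gene for factor X, which lies 1499 bases from F7, had a log2 fold change of −0.20 (SE 0.140), and the ratio of F10 to F7 overlapped between the groups (exact permutation p = 0.0857, 0.265 after adjustment over the 13 pairs). F2 had −0.94 with a standard error above its own size, at 0.489 ± 0.565 CPM in POLR2G livers and 0.939 ± 1.06 CPM in GFP control livers, too few counts to fix a direction.

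Among the anticoagulant genes the smallest p was that of Serpind1, which encodes heparin cofactor II, an inhibitor of thrombin (ENSMUSG00000022766; chromosome 16, 17331371 to 17343575, plus strand). It had 259, 239.8, 243 and 249.7 CPM in POLR2G libraries, against 203, 205, 234 and 222 CPM in GFP control libraries. The groups were apart by a narrow gap between POLR2G replicate 3 and GFP control replicate 3. The log2 fold change was 0.20 (SE 0.0680, adjusted p = 0.464 in edgeR, exact permutation p = 0.0286). Hrg, encoding histidine-rich glycoprotein, which binds heparin and plasminogen (ENSMUSG00000022877; chromosome 16, 22951072 to 22961656, plus strand), had 1033, 1103, 1119.6 and 928 CPM in POLR2G libraries, against 899, 875, 1051 and 972 CPM in GFP control libraries. The unnumbered POLR2G library lay among the GFP control libraries and GFP control replicate 3 among the POLR2G libraries (log2 fold change 0.14, SE 0.0873, adjusted p = 0.747 in edgeR, exact permutation p = 0.143). Serpinc1, the gene for antithrombin, the main inhibitor of thrombin and factor Xa, had −0.035 (SE 0.108). Proc, for protein C, and Pros1, for its cofactor protein S, had 0.13 (SE 0.0700) and 0.11 (SE 0.152).

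The fibrinolysis genes all had the higher mean in POLR2G livers. Serpinf2, encoding alpha-2-antiplasmin, which blocks plasmin (ENSMUSG00000038224; chromosome 11, 75431732 to 75439591, minus strand), had 861, 857, 891 and 770.5 CPM in POLR2G libraries, against 665, 716, 834 and 734 CPM in GFP control libraries. The unnumbered POLR2G library lay below GFP control replicate 3, and the groups otherwise kept apart. The log2 fold change was 0.20 (SE 0.0849, adjusted p = 0.585 in edgeR, exact permutation p = 0.0571). Plg, encoding plasminogen, the precursor of plasmin (ENSMUSG00000059481; chromosome 17, 12378608 to 12419385, plus strand), had 3010.2, 3018, 3084 and 2685 CPM in POLR2G libraries, against 2556, 2563, 3061 and 2625 CPM in GFP control libraries. GFP control replicate 3 alone among the controls reached the POLR2G values (log2 fold change 0.13, SE 0.0832, adjusted p = 0.753 in edgeR, exact permutation p = 0.114). Cpb2, for a carboxypeptidase that protects fibrin from plasmin, had 0.036 (SE 0.0815). Enzyme precursor and inhibitors of this arm had log2 fold changes of the same sign, with overlapping groups for each. The higher mean was in POLR2G livers for 74.4% of the members tested and 49.3% of all genes. With library totals alone as the scale, Plg had 0.044 and Serpinf2 0.11.

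Vitronectin, a plasma and matrix protein that stabilises the plasminogen activator inhibitor PAI-1 and blocks the membrane attack complex, is encoded by Vtn (ENSMUSG00000017344; chromosome 11, 78499091 to 78502324, plus strand). It had 2588, 2517, 2474 and 2227 CPM in POLR2G libraries, against 2080.5, 2193, 2681 and 2076 CPM in GFP control libraries. GFP control replicate 3 was the highest of all 8 libraries, and the other 3 control libraries were below all POLR2G libraries (log2 fold change 0.12, SE 0.0977, adjusted p = 0.815 in edgeR, exact permutation p = 0.286). Serping1, for the C1 inhibitor, which restrains both C1 and kallikrein, had −0.021 (SE 0.114), and Serpinf1, for the serpin PEDF, had 0.11 (SE 0.194).

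In the lectin pathway, mannose-binding lectins carry the MASP proteases to microbial sugars. Masp1, the gene of the first of these proteases (ENSMUSG00000022887; chromosome 16, 23449417 to 23520815, minus strand), had 229, 201, 216 and 191 CPM in POLR2G libraries, against 181, 179, 183 and 187 CPM in GFP control libraries. The groups were apart, the unnumbered POLR2G library lying just above GFP control replicate 4. The log2 fold change was 0.20 (SE 0.0694, adjusted p = 0.476 in edgeR, exact permutation p = 0.0286). Masp2, whose protease cleaves C4 and C2, had 0.085 (SE 0.0629), and the lectin genes Mbl1 and Mbl2 had 0.086 (SE 0.0902) and −0.075 (SE 0.0922).

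C4b, encoding complement C4, which the classical and lectin pathways both cleave (ENSMUSG00000073418; chromosome 17, 34728380 to 34743882, minus strand), had 1927, 1563, 1683 and 1399 CPM in POLR2G libraries, against 1528, 1168, 1865 and 1545 CPM in GFP control libraries. The groups overlapped widely (log2 fold change 0.11, SE 0.145, adjusted p = 0.905 in edgeR, exact permutation p = 0.514). Cfb, for factor B, the protease of the alternative pathway (ENSMUSG00000090231; chromosome 17, 34856374 to 34862518, minus strand), had 1131, 1196, 959 and 1039.6 CPM in POLR2G libraries, against 931, 1097, 1217 and 964 CPM in GFP control libraries. Here too the groups overlapped (log2 fold change 0.039, SE 0.106, adjusted p = 0.958 in edgeR, exact permutation p = 0.686). Its neighbour C2, the matching protease gene of the classical pathway, had 0.17 (SE 0.369), and an annotated gene model overlaps both on the same strand, so their counts can be split. C3 averaged 0.753 ± 0.859 CPM in POLR2G livers and 0.517 ± 0.445 CPM in GFP control livers, untested. F12, of the contact system, averaged 0.349 ± 0.356 CPM in POLR2G livers and 0.310 ± 0.352 CPM in GFP control livers, also untested.

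Of the complement regulators, Cfi, for factor I, which inactivates C3b and C4b (ENSMUSG00000058952; chromosome 3, 129835884 to 129875332, plus strand), had 859, 864, 839 and 775 CPM in POLR2G libraries, against 694, 723, 921 and 749 CPM in GFP control libraries. Again GFP control replicate 3 was above all others, and the other 3 control libraries were below all POLR2G libraries (log2 fold change 0.11, SE 0.0959, adjusted p = 0.824 in edgeR, exact permutation p = 0.286). C4bp, for the C4b-binding protein that serves factor I as cofactor, had −0.19 (SE 0.131).

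The terminal genes encode the membrane attack complex. Hc, the mouse gene for C5 (ENSMUSG00000026874; chromosome 2, 34983331 to 35061438, minus strand), had 1258, 1117, 1148 and 980.2 CPM in POLR2G libraries, against 1124, 897, 1228 and 1058 CPM in GFP control libraries. The groups overlapped (log2 fold change 0.064, SE 0.111, adjusted p = 0.932 in edgeR, exact permutation p = 0.60). C6, which binds C5b, had 496, 432, 443 and 417 CPM in POLR2G libraries, against 443, 315, 234 and 390.1 CPM in GFP control libraries (log2 fold change 0.37, SE 0.172, adjusted p = 0.614 in edgeR). Only GFP control replicate 1 reached the POLR2G values of C6. C8a and C8b, 11.1 kb apart, encode the alpha and beta chains of C8 and had 0.20 (SE 0.104) and 0.17 (SE 0.101). Their ratio differed between the groups by 0.020 on the log2 scale (exact permutation p = 0.800). The 3 C8 chains summed to 1567 ± 118 CPM in POLR2G livers and 1376 ± 164 CPM in GFP control livers, and the groups overlapped. C8g, for the gamma chain, had −0.36 (SE 0.396), and C9, for the pore-forming subunit, 0.16 (SE 0.305), both at few counts.

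GFP control replicate 3 stood apart from the other 3 control libraries for many members. Among the 35 members with a mean of at least 20 CPM, 8, 1, 8 and 2 had their highest value in POLR2G replicates 1, 3, 4 and the unnumbered library, and 3, 0, 13 and 0 had it in GFP control replicates 1 to 4. The lowest value was in those POLR2G libraries for 2, 0, 1 and 4 members and in GFP control replicates 1 to 4 for 11, 8, 3 and 6. The median deviation of the 39 members tested from the GFP control mean was 0.0082 to 0.13 on the log2 scale in POLR2G libraries. It was 0.16 in GFP control replicate 3 and −0.072 to −0.035 in the other control libraries. Without that library, 34 of 40 members tested had the higher mean in POLR2G livers (85%, against 49.8% of all genes). At an unadjusted p under 0.05 there were 12 in either direction (30%, against 8.94% of all genes). Of these 12, 11 had the higher mean, and none had an edgeR adjusted p under 0.05. With other single libraries left out, the share with the higher mean was lowest without GFP control replicate 2, at 24 of 39 members (61.5%, against 49.6% of all genes). Without POLR2G replicate 1, or without POLR2G replicate 4, the count at an unadjusted p under 0.05 was 3 (7.69% and 7.5% of members, against 6.89% and 6.25% of all genes). GFP control replicate 3 also had the lowest total count and the highest values of acute phase genes Saa1 and Hpx, chosen after their values were seen. Saa1, for serum amyloid A, had 28.7 to 312 CPM in POLR2G libraries, 406 CPM in GFP control replicate 3 and 26.3 to 181 CPM in the other control libraries. Hpx, for hemopexin, had 3095 to 4230 CPM in POLR2G libraries, 5864 CPM in GFP control replicate 3 and 2755 to 3402 CPM in the other control libraries. Of the 20 acute phase genes listed, all but Saa4, Hamp, Steap4 and Socs3 had their highest control value in GFP control replicate 3. Saa2, Orm1 and Itih4 were higher still in POLR2G replicate 1. Saa4 had 278 CPM in GFP control replicate 3 and 456 CPM in replicate 1, and Hamp had 746 CPM and, in replicate 2, 1305 CPM. The part of the acute phase genes in the members' values was not tested.

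**Figure D4:**
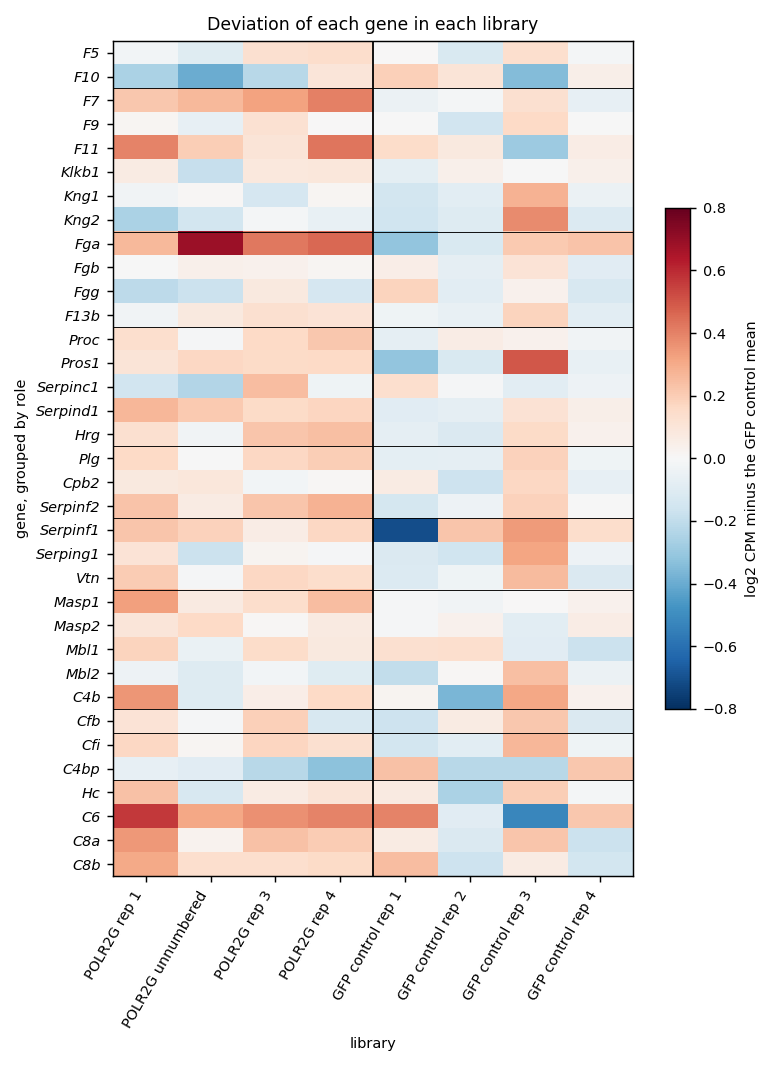
Log2 CPM minus the GFP control mean for the 35 members with a mean of at least 20 CPM (rows, grouped by role) in the 4 POLR2G (left) and 4 GFP control (right) libraries. GFP control replicate 3 is red for most genes, with a median deviation of 0.16 over the 39 members tested, and deepest blue for F10, F11 and C6.

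Genes of the same pathways that are not among the 41 had no call in edgeR and 1 in DESeq2. Of 61 such genes listed, 56 were in the table and 40 were tested, and none passed edgeR over all genes, 21 having the higher and 19 the lower mean in POLR2G livers (median log2 fold change 0.012). At an unadjusted p under 0.05 there were 2 (5%, against 8.3% of all genes). Thbd, for thrombomodulin, the endothelial receptor that turns thrombin toward activating protein C, had 2.94, 4.16, 4.73 and 3.29 CPM in POLR2G libraries, against 11.6, 7.54, 7.80 and 4.55 CPM in GFP control libraries. Only GFP control replicate 4 overlapped the POLR2G values (log2 fold change −1.06, SE 0.288, adjusted p = 0.357 in edgeR, exact permutation p = 0.0571), and DESeq2 called the gene (adjusted p = 0.0479). Beside it stands Lyve1, a marker of liver sinusoidal endothelium, at 7.00 ± 0.661 CPM in POLR2G livers and 12.6 ± 5.82 CPM in GFP control livers (log2 fold change −0.85, SE 0.277, adjusted p = 0.444 in edgeR). The 7 endothelial markers in the table, of which 6 were tested, 4 with the higher and 2 with the lower mean in POLR2G livers, summed to 106.8 to 139 CPM in POLR2G libraries and 98.3 to 130.05 CPM in GFP control libraries. The part of endothelial cells in the Thbd value was not tested.

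C1s1, for the C1s protease of the classical pathway, had 797, 859, 867 and 773 CPM in POLR2G libraries, against 737, 760.2, 743 and 734 CPM in GFP control libraries. All POLR2G libraries lay above all GFP control libraries (log2 fold change 0.15, SE 0.0637, adjusted p = 0.583 in edgeR, exact permutation p = 0.0286). Groups were apart in either direction for 2.5% of the other pathway genes tested, against 5.51% of all genes. Of the 6 genes of the C1 complex list that were tested, 5 had the higher mean in POLR2G livers. The remaining role lists are given by the gene with the smallest p in each. Cpn2, for a subunit of the carboxypeptidase that inactivates anaphylatoxins, had a log2 fold change of 0.17 (SE 0.0838), and Ggcx, the vitamin K-dependent carboxylase gene, 0.12 (SE 0.0711). Colec11, a collectin gene of the lectin pathway, had 0.15 (SE 0.165), Cfp, for properdin, 0.26 (SE 0.213), and Vsig4, for a complement receptor of Kupffer cells, 0.23 (SE 0.190). Vsig4 is also on the Kupffer cell list and, like the sum of that list, was highest in the unnumbered POLR2G library, at 33.1 CPM. Fgl1, for a fibrinogen-like liver protein, had −0.48 (SE 0.365) with its highest value, 662 CPM, in GFP control replicate 3, and Thbs1, for thrombospondin, had −0.27 (SE 0.531). None of these 7 had an unadjusted p under 0.05.

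Regulators and other secreted liver genes give the surroundings of the members. Of 13 hepatocyte transcription factor genes tested, 9 had the higher and 4 the lower mean in POLR2G livers, and none passed edgeR over all genes. Cebpa, for C/EBP alpha, had 99.98, 79.5, 55.0 and 69.8 CPM in POLR2G libraries, against 37.5, 65.0, 40.7 and 42.6 CPM in GFP control libraries. GFP control replicate 2 overlapped the POLR2G values (log2 fold change 0.71, SE 0.213, adjusted p = 0.388 in edgeR). Foxa1, for a forkhead factor of liver enhancers, had 0.42 (SE 0.171, adjusted p = 0.541 in edgeR). Of 19 acute phase genes tested, 8 had the higher and 11 the lower mean in POLR2G livers, and none passed edgeR over all genes. Socs3, a feedback inhibitor of IL-6 signalling, averaged 10.5 ± 2.61 CPM in POLR2G livers and 5.21 ± 0.499 CPM in GFP control livers (log2 fold change 1.01, SE 0.189, adjusted p = 0.164 in edgeR, DESeq2 adjusted p = 9.50e-04). Its groups were apart, at 8.62 to 14.4 CPM against 4.51 to 5.69 CPM (exact permutation p = 0.0286). Groups were apart for 5.26% of the acute phase genes tested, against 5.51% of all genes. Lbp, for the lipopolysaccharide-binding protein, had −0.26 (SE 0.123).

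Promoter windows were found in the RefSeq table for 32 of the 41 members, as 33 windows of 250 bases. Read on both strands, CTGGGAA stood in 4 of the 33 (12.1%) and in 9.1% of all windows of that length, and TTGCNNAA in 9 of the 33 (27.3%) and in 9.56% of all windows. Besides the fibrinogen genes, CTGGGAA was in the windows of Masp2 and F9, and TTGCNNAA in those of F11, Klkb1, F9, Hrg, Kng2, C9 and C3. CAAAGTCCA, the letters of an HNF4A site, and the HNF1 palindrome stood in none of the 33 windows and in 0.384% and 0.0335% of all windows. Among the 9 members with TTGCNNAA, log2 fold changes ran from −0.13 for Kng2 to 0.45 for Fga, and C3 was untested. None of the 4 motifs shares its letters with another in the windows printed, and a match describes letters only.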

How the data were processed

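Per the labels' protocols, strand-specific libraries were built from poly-A RNA of snap-frozen liver. The authors deposited 1 table of estimated counts per gene, whole numbers with no normalization. The submitters' processing notes name Salmon 1.2.1, which estimates the abundance of transcripts, and GRCm38 and mm10 as builds. How transcripts were joined into gene values is not given in the sources used here. Columns were matched to libraries by name. A POLR2G column with a number missing from the labels was kept in its group, unnumbered. No library duplicated another of its group: counts in the 12 pairs gave 13.4 to 138 as chi-square divided by its degrees of freedom.

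Counts were fitted over the whole table with the quasi-likelihood test of edgeR 4.0.16 under R 4.3.3, two-sided, with group as its single term and TMM scaling. Genes were kept by filterByExpr at its settings of 10 counts and a total of 15. P-values were adjusted by Benjamini-Hochberg over all 10390 genes tested, with a threshold of 0.05. The SE is the size of the log2 fold change divided by the square root of F, and intervals are 95%. Single values were compared by exact two-sided permutation of log2 CPM (prior count 2) across the 70 possible arrangements, which cannot give p below 0.0286. Alternatives were DESeq2 1.42.0, RLE or no composition scaling, library sizes without the 20 most abundant genes, a low-count filter that was absent or stricter (at least 1 CPM in at least 4 libraries), a replicate block, and leaving out each library. A fit limited to genes with 1 annotated coding transcript was chosen after seeing the data.

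Full values are given for members with an unadjusted p under 0.05, with groups that do not overlap, or with the highest mean CPM of their role; C6 was added after its values were seen. Of the other pathway genes, the one with the smallest p in each role is named, and of the transcription factor, acute phase and marker lists up to 2. The members and lists were chosen with earlier results of these data known. Positions follow GENCODE M21 (GRCm38) and start at 1.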

Additional observations from a re-analysis of the deposited data

Results flagged for a closer look

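In 7 of 90 groups of 4 libraries examined (each of the 41 members, the members' share of counts and the fibrinogen, kininogen and C8 sums, in POLR2G and in GFP control livers), 1 library lay far from the other 3, where chance gives about 1 in 20 groups, or 4.5 of 90. In POLR2G livers, Klkb1 was 399 CPM in the unnumbered library, against 473 to 482 CPM in the other 3. Pros1 was 80.1 CPM in POLR2G replicate 1, against 83.0 to 83.4 CPM in the other 3. C3 was 2.03 CPM in POLR2G replicate 1, against 0.234 to 0.513 CPM in the other 3, all at few counts. C8b was 621 CPM in POLR2G replicate 1, against 551 to 560.1 CPM in the other 3. In GFP control livers all 3 cases fell in replicate 3. Kng2 was 408 CPM there, against 281 to 293 CPM in the other control libraries, Plg was 3061 CPM, against 2556 to 2625 CPM, and the kininogen sum, which contains Kng2, was 641 CPM, against 455 to 477 CPM.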

How the results depend on the processing

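For the 17 members given in full, C6 included, 280 log2 fold changes under alternatives were compared with the reported ones. Direction and side of the edgeR threshold held in 262, 17 turned sign, and 1 passed (F7 in DESeq2, log2 fold change 0.30, adjusted p = 0.0065). Without composition scaling F5 was −0.041, Klkb1 −0.062, Fgb −0.056, Cfb −0.045 and Hc −0.016, the sum of the fibrinogen chains had a log2 ratio of −0.064 (0.011 as reported), and 1 member had an unadjusted p under 0.05 (2.56%, against 9.06% of all genes). With each library left out in turn, log2 fold changes ran from −0.0015 to 0.085 for F5, −0.0068 to 0.080 for Klkb1, −0.0090 to 0.057 for Fgb, −0.015 to 0.12 for Cfb, −0.0024 to 0.22 for C4b and −0.014 to 0.13 for Hc. They ran from 0.065 to 0.21 for Cfi, 0.081 to 0.21 for Vtn and 0.22 to 0.51 for C6, the log2 ratio of the kininogen sum from −0.15 to 0.027 (−0.099 as reported; 0.027 without GFP control replicate 3), and the count at an unadjusted p under 0.05 from 3 to 12. With 1 library left out, the share of members with the higher mean ran from 61.5% to 85%. DESeq2 called 1 member and 1 other pathway gene, Thbd. The fit of genes with 1 coding transcript gave 2 of 14 members at an unadjusted p under 0.05 (14.3%, against 11.2% of 2970 genes). Replicate numbers gave no clear pairing: deviations of same-numbered libraries correlated at 0.0642, −0.0245 and 0.0361. Of the 3 numbered POLR2G libraries, 2 correlated best with their own number, and so few pairs cannot exclude a pairing. With the replicate block, 4 members had an unadjusted p under 0.05 (10.5%, against 6.95% of all genes), against 3 in the same 6 libraries with no block term (7.89%, against 7.43%), Fgb was −0.0099 and −0.012 in these fits, and no member was called. Low counts limit F2, F12, C3, C2, C8g and C9. For Fga, whose level per kb lay far below those of Fgb and Fgg, the coverage of its transcripts is uncertain too.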
